A study of Mus musculus with 12 samples.

Results

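Cluster 9, named Early PN by the authors, and Cluster 6, named non-mitotic intermediate progenitor cells (IPCs), were compared within each of 11 mouse embryos. For each gene, the UMIs of all Cluster 9 nuclei of an embryo were added up and set against those of its Cluster 6 nuclei, so that every embryo served as its own control. The members were the 2457 nuclei of Cluster 9 and the 3764 nuclei of Cluster 6, which made up 6221 of the 50550 nuclei in 25 clusters. Nuclei came from cortices of C57BL/6J embryos at embryonic day 14, and no group carried a transgene or a mutation. The 5 saline embryos came from dams S1 (S1-1, S1-2) and S2 (S2-1, S2-2, S2-4) given saline by intraperitoneal injection, and the 6 EtOH embryos came from dams E1 (E1-1, E1-2) and E2 (E2-1 to E2-4) given 2.5 g/kg EtOH once a day. Injections started on embryonic day 8.5 and ran for 6 days. Batch 1 held the litters of S1 and E1, and batch 2 those of S2 and E2, which gives each batch both treatments, but with only 2 dams per treatment the p-values below take littermates as independent. The clusters were drawn by the authors from these same counts, so a small p-value here measures how uniform a difference was over embryos and is no independent evidence that the clusters differ.

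Intermediate progenitors are the neurogenic daughters of radial glia. They leave the ventricular surface, switch on the T-box factor Eomes, and most of them divide a last time to give glutamatergic projection neurons (PNs). The newborn neurons switch off the progenitor program, pass through a multipolar stage in which the netrin receptor Unc5d is prominent, and then migrate radially and grow an axon. Proneural basic helix-loop-helix (bHLH) factors run through this sequence, with Neurog2 in progenitors and the Neurod family in the neurons that follow.

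The stretches before the start sites of 3 factors of this sequence are shown, because 2 of them (Eomes and Neurog2) fell and 1 (Neurod2) rose in the comparison and bHLH factors bind E-boxes, the hexamer CANNTG. Each is 250 bases on the gene's own strand, 5′ to 3′, ending at the base before the RefSeq start on GRCm38.p6, with E-boxes in capitals.
Eomes, chr9:118477939-118478188, plus strand: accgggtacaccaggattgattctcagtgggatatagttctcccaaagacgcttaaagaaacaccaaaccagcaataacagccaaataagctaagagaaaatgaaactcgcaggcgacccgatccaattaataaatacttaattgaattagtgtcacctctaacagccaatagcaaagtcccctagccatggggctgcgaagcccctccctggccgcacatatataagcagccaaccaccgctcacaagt
Neurog2, chr3:127632886-127633135, plus strand: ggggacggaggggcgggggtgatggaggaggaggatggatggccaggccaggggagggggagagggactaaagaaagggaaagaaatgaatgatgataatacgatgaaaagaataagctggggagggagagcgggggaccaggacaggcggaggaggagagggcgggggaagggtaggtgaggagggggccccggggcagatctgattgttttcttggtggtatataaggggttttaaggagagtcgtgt
Neurod2, chr11:98329646-98329895, minus strand: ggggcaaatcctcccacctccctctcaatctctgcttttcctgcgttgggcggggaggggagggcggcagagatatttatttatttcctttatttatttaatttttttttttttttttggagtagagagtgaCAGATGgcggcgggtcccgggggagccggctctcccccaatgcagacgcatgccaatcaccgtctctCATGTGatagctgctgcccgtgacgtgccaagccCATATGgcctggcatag
The Neurod2 window held 3 E-boxes, CAGATG at 118, CATGTG at 51 and CATATG at 17 bases before the start, whereas the letters CANNTG occurred in neither of the other windows. The hexamer is its own reverse complement in form, so 1 search covered both strands. It was present in 66.2% of the 32851 promoter windows of this length, and CAGATG or its complement CATCTG, which is one form of the E-box, in 14.4% of them. A match is a description of the letters and not a binding site.

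Saline embryos S2-4, S2-1 and S2-2 stood apart from the rest. On the main axis of variation in the level of all genes in Cluster 6 (38.4% of the variance), embryo S2-4 scored 11.9, the other 4 saline embryos scored between -27.7 and -15.8, and the EtOH embryos between 8.81 and 14.7. Cluster 9 (32.7% of the variance) gave 9.39 for S2-4, -29.9 to -18.4 for the other saline embryos and 11.5 to 16.8 for EtOH embryos, so that S2-4 lay within the EtOH range in Cluster 6 and just below it in Cluster 9. Thus the library labelled S2-4 lay beside the EtOH libraries on this axis in both clusters. Embryos S2-1 and S2-2 differed from the rest in Unc5d, as given below. Median UMIs per nucleus showed a like split. In Cluster 6 they were 6480 to 7387 in the other 4 saline embryos, 4944 in S2-4 and 3188 to 5306 in EtOH embryos, and in Cluster 9 they were 6488 to 7754, 5071 and 3282 to 5368. The 22 sums held between 532801 and 5259037 UMIs. Of 6218 barcode sequences in the 2 clusters, 3 occurred in more than 1 embryo.

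Levels are given as CPM (UMIs scaled to the total of each sum), as the lowest, median and highest of the 11 embryos. Fold changes are log2, Cluster 9 minus Cluster 6, ± SE, from a paired edgeR quasi-likelihood fit over all genes with TMM scaling, and genes were called where the Benjamini-Hochberg adjusted p was under 0.05 and the fold change was below 0.8 or above the inverse of that. TMM factors were 1.01 to 1.09 in Cluster 6 and 0.880 to 0.974 in Cluster 9, so a fold change is somewhat more positive than the ratio of the CPM values beside it.

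The 2 genes that mark the pair, one for each name, were examined first. Eomes, on chromosome 9 from 118478212 to 118486132 (GRCm38), was at 343, 416 and 488 CPM in Cluster 6 and at 23.8, 47.2 and 91.6 CPM in Cluster 9, and the 11 values of one cluster did not overlap those of the other. It fell by 2.84 ± 0.12 on the log2 scale, which is 7.18-fold (adjusted p = 5.99e-10, in 11 of 11 embryos). Unc5d, on chromosome 8 from 28646717 to 29219636, was at 1862, 4227 and 4704 CPM in Cluster 6 and at 5695, 9679 and 10688 CPM in Cluster 9, again with no overlap. It rose by 1.42 ± 0.05, or 2.68-fold (adjusted p = 4.01e-17, in 11 of 11 embryos). Embryos S2-1 and S2-2 were the lowest in both clusters, with 1862 and 2551 CPM in Cluster 6 and 5695 and 6272 CPM in Cluster 9, while the other 9 embryos lay at 3640 to 4704 and 9028 to 10688 CPM. The step of Unc5d within these 2 embryos was in the same direction as in the others.

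Seen per nucleus, the exchange was not complete. An Eomes UMI was found in 78.6% ± 6.50 of Cluster 6 nuclei (SD, n = 11 embryos) and in 18.8% ± 7.45 of Cluster 9 nuclei, against 5.98% ± 2.63 in migrating interneurons (Cluster 5), which should lack it. The medians of the embryos' median depths were 4954 UMIs in Cluster 6, 5358 in Cluster 9 and 5910 in Cluster 5, so the share in Cluster 9 was above this background at a similar depth. With every nucleus thinned to 2000 UMIs, the shares were 53.4% in Cluster 6, 8.26% in Cluster 9 and 1.65% in Cluster 5. Shallower nuclei were left out and made up between 0.278% and 1.56% of a cluster and treatment.
Unc5d was found in 81.3% ± 8.31 of Cluster 6 nuclei and 99.9% ± 0.182 of Cluster 9 nuclei, but also in 59.0% ± 20.9 of Cluster 5, so its presence alone does not set Early PN apart. Both genes together were seen in 35.8% of thinned Cluster 6 nuclei and 8.26% of thinned Cluster 9 nuclei, Eomes without Unc5d in 17.6% and 0%, and Unc5d without Eomes in 35.1% and 91.4%. Neurog2 went from 45.6% to 8.87% of unthinned nuclei, against 4.81% in Cluster 5, and Nrp1 from 67.0% to 96.7%, against 30.8% in Cluster 5.

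Of 9425 genes tested, 1479 (15.7%) rose and 1638 (17.4%) fell from Cluster 6 to Cluster 9, so that 33.1% of all genes passed the test. Changes over 2-fold were found for 294 genes that rose (3.12%) and 486 that fell (5.16%). Called genes with the same direction in all 11 embryos numbered 1864, or 19.8% of those tested. The split depends on scaling. With scaling by total UMIs alone the median of all genes moved from -0.02 to -0.20, and 884 genes rose and 3099 fell, so small changes below are relative to the TMM scale.

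The 10 largest falls were in genes of varied function. Rgs3, a regulator of G protein signalling, was at 67.9, 98.5 and 136 CPM in Cluster 6 and 1.57, 4.94 and 7.69 CPM in Cluster 9 and fell by 4.12 ± 0.13. Ebf2, of the early B-cell factor family, went from 36.1, 95.6 and 321 to 0, 2.07 and 30.8 CPM and fell by 4.04 ± 0.19, and its relative Ebf3 fell by 3.35 ± 0.16. Both were low in Cluster 9 in every embryo, although Ebf2 varied in Cluster 6, where S2-1 and S2-2 had 321 and 277 CPM. The same 2 embryos had the highest summed level of 9 Cajal-Retzius genes in Cluster 6, 482 and 619 CPM against 189.97 to 330.1 CPM in the other 9. That sum includes Ebf3 itself. Of its mean of 319 CPM, Reln made up 162 CPM and Ebf3 99.8 CPM.
Gadd45g, a stress and cell cycle gene that Neurog2 can induce, went from 64.0, 88.6 and 119 to 3.82, 7.87 and 11.7 CPM and fell by 3.42 ± 0.11. Kif26b, an atypical kinesin tied to Wnt5a signalling, went from 1166, 1349 and 1669.7 to 73.4, 121 and 203 CPM and fell by 3.27 ± 0.14. The remaining genes among the 10 largest falls were Sdk2, a sidekick adhesion molecule (-4.04 ± 0.15), Smoc1, a secreted BMP modulator (-3.72 ± 0.25), the tetraspanin Tspan18 (-3.60 ± 0.14), the lysophosphatidic acid receptor Lpar1 (-3.53 ± 0.22) and Megf11 (-3.52 ± 0.14). For all 10, no value of Cluster 9 reached into the range of Cluster 6. These genes were chosen for large falls in every embryo, which largely fixes such separation.

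**Figure D1:**
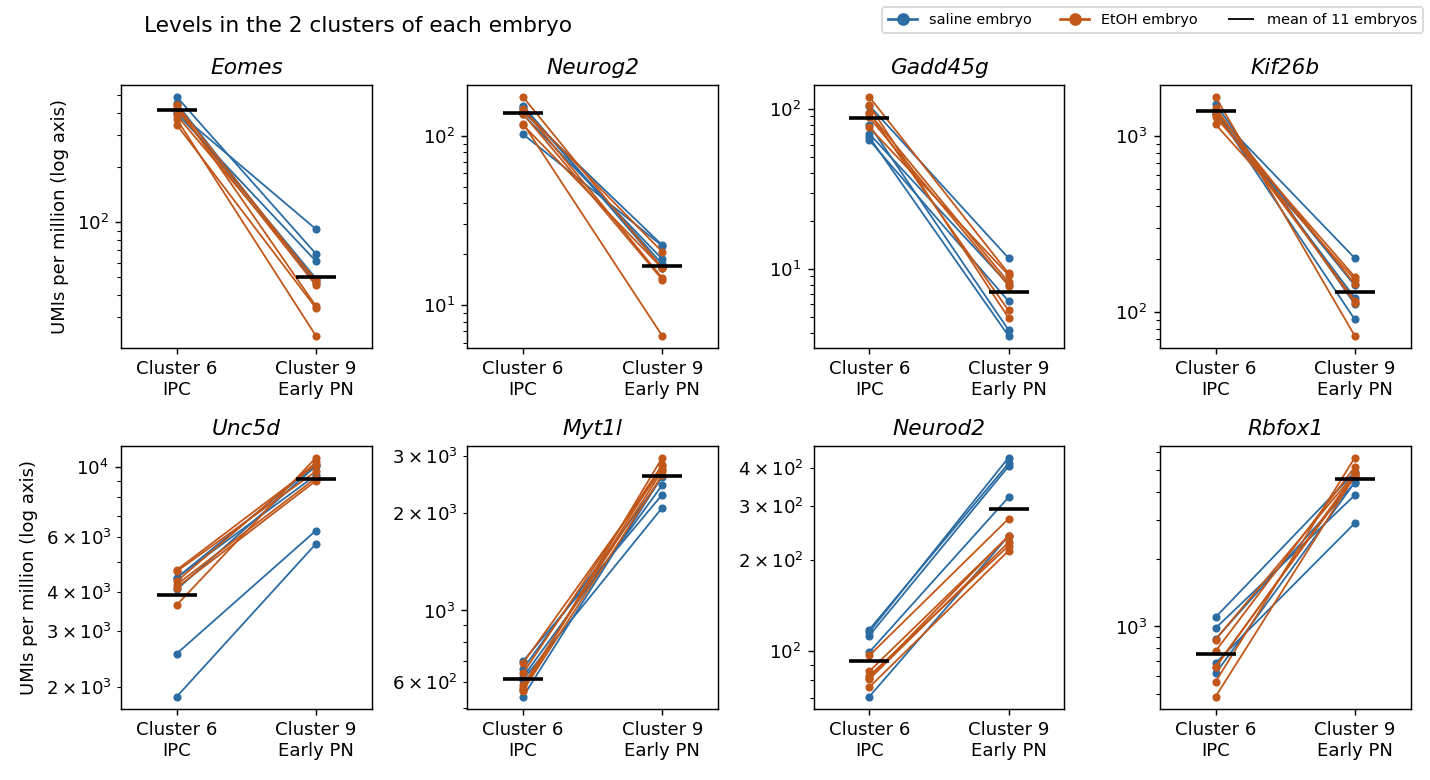
Levels of 8 genes in Cluster 6 and Cluster 9 of each embryo, in CPM on a log axis, with 1 line per embryo (blue saline, orange EtOH) and black bars for the mean of 11 embryos. The upper 4 genes fell and the lower 4 rose in all 11 embryos, and the 2 saline embryos with low Unc5d, S2-1 and S2-2, stand apart from the rest in that panel.

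The 10 largest rises were likewise in genes of varied function. Rbfox1, a neuronal splicing factor, was at 486, 685 and 1099.8 CPM in Cluster 6 and 2895, 4706 and 5684 CPM in Cluster 9 and rose by 2.79 ± 0.15 (adjusted p = 1.92e-08). Scn1a, a voltage-gated sodium channel, went from 31.9, 40.7 and 52.6 to 163, 224 and 259 CPM and rose by 2.57 ± 0.06. Chrna7, the alpha7 nicotinic acetylcholine receptor subunit, went from 16.2, 23.5 and 30.99 to 112, 145 and 234 CPM and rose by 2.73 ± 0.13. In each of these 3 genes the highest embryo of Cluster 6 lay below the lowest of Cluster 9. All 3 had a higher mean in mitotic IPC Cluster 17 than in Cluster 6. The means were 2081 and 753 CPM for Rbfox1, 54.3 and 40.9 CPM for Scn1a, and 67.1 and 24.7 CPM for Chrna7.
The other 7 were Cemip, a hyaluronan-binding protein (2.77 ± 0.20), Abcc8, the sulfonylurea receptor (2.73 ± 0.09), Ndst3, a heparan sulfate modifying enzyme (2.72 ± 0.08), Nos1, the neuronal nitric oxide synthase (2.68 ± 0.13), Chst9, a sulfotransferase (2.68 ± 0.21), Adamtsl3 (2.65 ± 0.07) and Nav2, a microtubule-associated navigator (2.61 ± 0.23). Nos1 was the only one of the 10 whose ranges overlapped, at 3.55, 8.36 and 13.8 CPM in Cluster 6 and 11.6, 52.6 and 73.4 CPM in Cluster 9. The 10 were chosen for large rises in all 11 embryos, which largely fixes such separation.

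The progenitor programs went down together. Of 19 intermediate progenitor genes tested, 16 fell (84.2%, beside 17.4% of all genes) and 0 rose (beside 15.7%). Their median log2 fold change was -1.16, against -0.02 over all genes tested. Neurog2, at 102, 139 and 169.6 CPM in Cluster 6 and 6.59, 16.6 and 22.6 CPM in Cluster 9, fell by 2.75 ± 0.09. Chd7, a chromatin remodeller, fell by 2.39 ± 0.10, from 849, 1028 and 1147 to 104, 156 and 329 CPM, and Btg2, an antiproliferative gene that marks neurogenic divisions, by 2.18 ± 0.11. Some genes of the list were retained, since Igfbpl1 had 0.06 ± 0.04 and the corepressor Rcor2 -0.08 ± 0.05, neither of which passed the test. Of 14 radial glia genes tested, 12 fell (85.7%, beside 17.4% of all genes) and 0 rose (beside 15.7%), with a median of -0.96. Among those that fell were Pax6, the dorsal progenitor factor (-1.82 ± 0.09), Emx2 (-1.62 ± 0.17) and the glutamate transporter Slc1a3 (-1.38 ± 0.19). The other 6 listed radial glia genes, with Hes1 and Hes5, were too low in both clusters to be tested.

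Transcripts of Notch signalling, in which Dll ligands of one cell hold neighbours in the progenitor state, had falls at each tier that could be tested. Of 15 genes tested, 12 fell (80%, beside 17.4% of all genes) and 0 rose (beside 15.7%), with a median of -0.83. Among receptors, Notch1 fell by 2.26 ± 0.14, Notch3 by 2.07 ± 0.16 and Notch2 by 0.45 ± 0.11. The ligand Dll1 was at 28.9, 49.3 and 80.8 CPM in Cluster 6 and 7.58, 14.4 and 28.0 CPM in Cluster 9 and fell by 1.41 ± 0.12, and Dll3 fell by 0.83 ± 0.17. Nuclear and shared parts of the pathway fell too, with -0.46 ± 0.04 for the DNA-binding partner Rbpj, -0.95 ± 0.04 for the coactivator Maml3 and -0.33 ± 0.04 for Mib1, the ubiquitin ligase of the ligands. Numb, which inhibits the receptor, fell as well (-0.44 ± 0.05).

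Cell cycle genes also fell, although Cluster 6 is itself mostly out of mitosis. Of 15 G1 cyclins and cell cycle exit genes tested, 10 fell (66.7%, beside 17.4% of all genes) and 0 rose (beside 15.7%), with a median of -0.74. Cyclin D2 (Ccnd2) went from 102, 120.2 and 134 to 33.7, 39.3 and 57.3 CPM and fell by 1.33 ± 0.07, its partner kinase Cdk6 by 1.57 ± 0.07 and the S phase factor E2f1 by 1.70 ± 0.11. The inhibitor Cdkn1c, which drives exit, fell by 0.95 ± 0.13, while Cdkn1b (-0.16 ± 0.08) did not pass the test. Of 10 dividing cell genes tested, 6 fell (60%, beside 17.4% of all genes), and 3 without S2-1, S2-2 and S2-4. The falls were led by the replication genes Mcm6 (-1.89 ± 0.13) and Mcm2 (-1.79 ± 0.24). The mitotic gene Top2a was found in 8.41% ± 3.87 of Cluster 6 nuclei and 5.67% ± 4.22 of Cluster 9 nuclei, against 92.1% ± 2.33 in mitotic IPC Cluster 17. It was also found in 10.4% ± 4.58 of migrating interneurons (Cluster 5) and 6.77% ± 5.10 of callosal PN (Cluster 1), so both shares were near those of neurons that do not divide. With thinned nuclei the shares were 3.38% in Cluster 6, 2.11% in Cluster 9, 4.41% in Cluster 5 and 1.86% in Cluster 1. The level of Top2a fell by 0.83 ± 0.28 from Cluster 6 to Cluster 9 (edgeR, adjusted p = 0.0295, in 10 of 11 embryos).

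Of 29 transcription factors of projection neurons tested, 17 rose (58.6%, beside 15.7% of all genes), 3 fell (10.3%, beside 17.4%) and 9 were not called (median 0.53). With scaling by total UMIs 16 rose and 7 fell, where 884 and 3099 of all 9425 genes did. Neurod2 was at 70.6, 85.6 and 118 CPM in Cluster 6 and 214, 239.8 and 434 CPM in Cluster 9 and rose by 1.85 ± 0.05, with no overlap between the clusters. Myt1l, a repressor of non-neuronal genes, went from 542, 611 and 697 to 2079, 2619 and 2967 CPM and rose by 2.25 ± 0.06.
Factors of upper and of deep layers were found among both the called and the uncalled genes. The upper-layer factor Cux2 rose by 1.72 ± 0.07, whereas its relative Cux1 was near 0 (log2 -0.00229) and did not pass the test. Bcl11b and Tle4, factors of subcortical neurons, rose by 1.59 ± 0.06 and 1.24 ± 0.09, and Tbr1 by 0.79 ± 0.08, while Fezf2 (-0.26 ± 0.09) did not pass the fold limit and was called as lower with scaling by total UMIs. The 3 that fell were St18, a paralog of Myt1l (-1.37 ± 0.07), the thyroid hormone receptor Thrb (-0.81 ± 0.13) and the layer 4 factor Rorb (-0.66 ± 0.08).

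**Figure D2:**
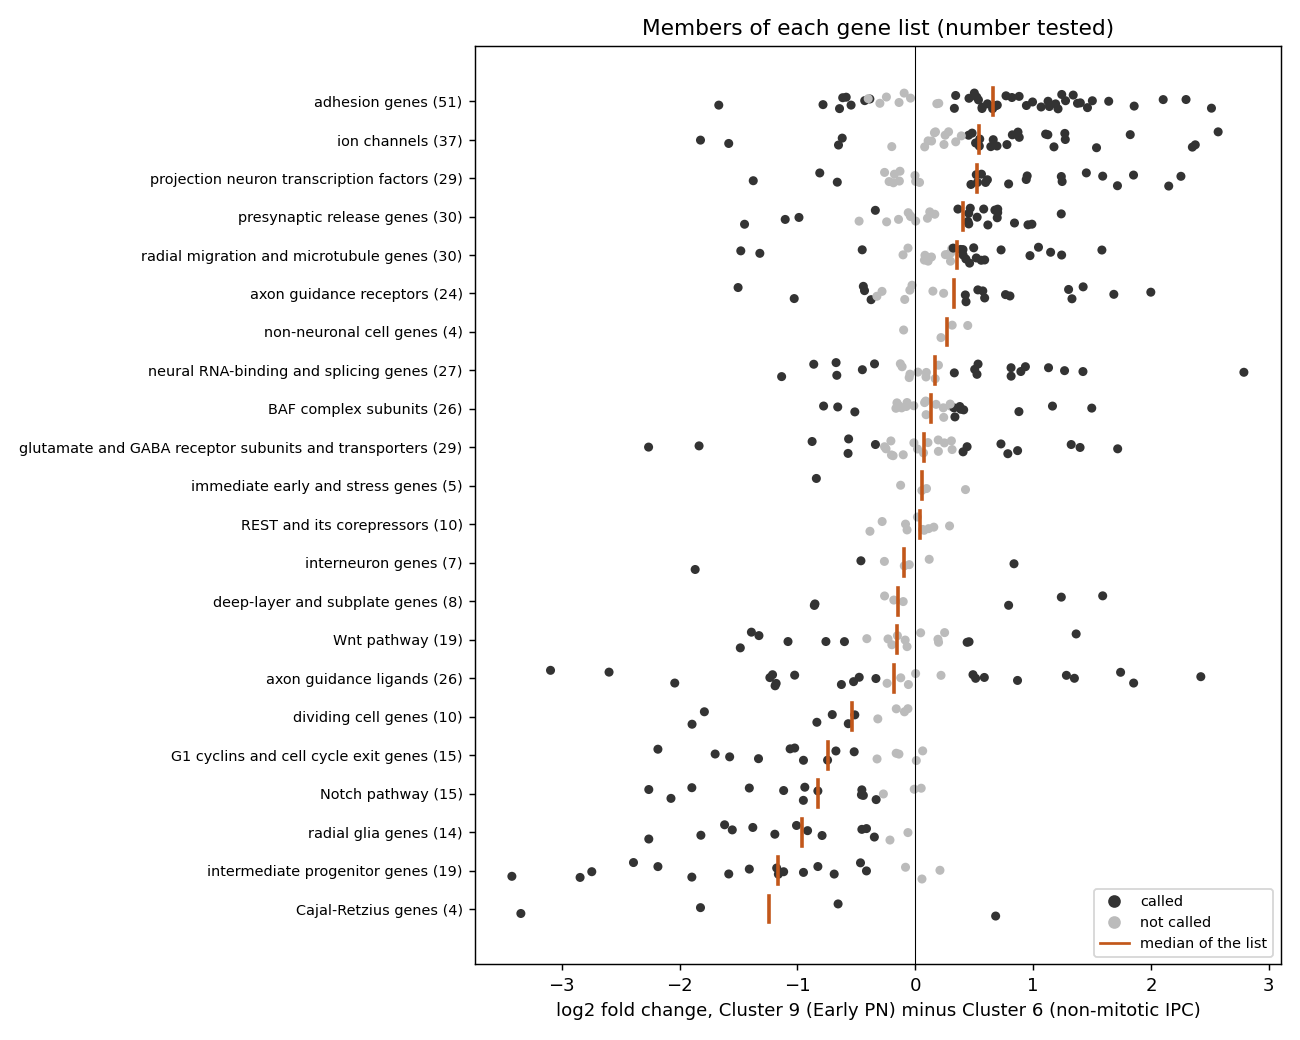
log2 fold change of every tested member of 22 gene lists, Cluster 9 minus Cluster 6, with called genes in black, others in grey and the list's median as an orange bar. Intermediate progenitor, radial glia, Notch and cell cycle lists lie left of 0, with medians between -1.16 and -0.54, and adhesion, ion channel and projection neuron factor lists lie right of 0, with medians between 0.53 and 0.66.

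Of 19 Wnt pathway genes tested, 3 rose (15.8%, beside 15.7% of all genes) and 6 fell (31.6%, beside 17.4%), with a median of -0.15. The ligands went opposite ways, since Wnt7b rose by 1.37 ± 0.08 (from 21.3, 36.9 and 54.1 to 44.6, 89.0 and 106 CPM) and Wnt5a fell by 1.39 ± 0.13 (from 13.3, 31.8 and 51.2 to 6.29, 9.89 and 15.02 CPM). The coreceptor Lrp5 fell by 1.08 ± 0.08 and its paralog Lrp6 had 0.20 ± 0.04, below the fold limit. Among nuclear factors Tcf7l1 fell by 1.48 ± 0.21 and Lef1 by 0.76 ± 0.11, and the pathway's own feedback inhibitors Znrf3 and Axin2 fell by 1.33 ± 0.08 and 0.60 ± 0.14. With scaling by total UMIs 1 gene rose and 10 fell, where 884 and 3099 of all 9425 genes did.

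Of 24 guidance receptors tested, 12 rose (50%, beside 15.7% of all genes) and 5 fell (20.8%, beside 17.4%), with a median of 0.33. The class 3 semaphorin receptor Nrp1 was at 448, 589 and 718 CPM in Cluster 6 and 1172, 1808 and 2179 CPM in Cluster 9 and rose by 1.69 ± 0.11, and its partner Plxna4 went from 1329, 1489 and 1821 to 4434, 5511 and 5895 CPM and rose by 2.00 ± 0.04. Nrp2 had 0.15 ± 0.05, below the fold limit. Netrin receptors diverged, since Unc5d rose as given above and Dcc fell by 1.03 ± 0.04, from 14761, 17466 and 25556 to 5581, 7816 and 12964 CPM. Among Slit receptors Robo2 rose by 1.30 ± 0.04 and Robo1 by 0.53 ± 0.11, and among Eph receptors Epha5 rose by 1.33 ± 0.03 and Ephb1 fell by 1.503 ± 0.25.
Of 26 guidance ligands tested, 9 rose (34.6%, beside 15.7% of all genes) and 12 fell (46.2%, beside 17.4%), with a median of -0.18. Transmembrane and secreted semaphorins were found on both sides. Sema6d, from 152, 234 and 332.9 to 873, 1006 and 1605 CPM, rose by 2.42 ± 0.10, Sema4d rose by 1.85 ± 0.10 and Sema3c by 1.74 ± 0.10, while Sema3e fell by 3.10 ± 0.17, from 36.9, 45.3 and 73.0 to 1.57, 4.05 and 11.6 CPM. All 3 Slit genes fell, Slit1 by 2.60 ± 0.17, Slit2 by 0.63 ± 0.10 and Slit3 by 0.52 ± 0.16, and so did the netrins Ntn1 (-1.18 ± 0.21) and Ntn4 (-2.04 ± 0.11). The reverse ligand Efnb2 rose by 1.35 ± 0.04.

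Adhesion genes gave the largest share of rises among the 22 lists. Of 51 tested, 35 rose and 8 fell (median 0.66), beside 15.7% and 17.4% of all genes. The 3 largest rises were those of Chl1, an adhesion molecule of the L1 family, from 68.1, 128 and 192 to 306, 732 and 939.9 CPM (2.51 ± 0.09), the contactin Cntn2 from 29.3, 50.6 and 74.2 to 146, 238 and 297 CPM (2.30 ± 0.12) and Dscam from 149, 242 and 284 to 722, 841 and 1157 CPM (2.10 ± 0.10). In each of these 3 genes the clusters did not overlap, which their choice as the largest rises largely fixes. Several classical cadherins rose as well, for example Cdh12 (1.86 ± 0.16) and Cdh4 (1.46 ± 0.04). Paralogs were not uniform, since the contactins Cntn6 (-0.78 ± 0.20), Cntn3 (-0.59 ± 0.13) and Cntn4 (-0.39 ± 0.10) fell while Cntn2 rose. Likewise, Nlgn2 rose by 0.57 ± 0.08 and Nlgn3 by 0.66 ± 0.13 while Nlgn1 fell by 0.64 ± 0.04, and Pcdh9 rose by 1.34 ± 0.08 while Pcdh15 fell by 1.67 ± 0.16.

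Of 30 genes of radial migration and microtubules tested, 16 rose (53.3%, beside 15.7% of all genes) and 3 fell (10%, beside 17.4%), with a median of 0.35. With scaling by total UMIs 9 rose and 3 fell, where 884 and 3099 of all 9425 genes did. Without S2-1, S2-2 and S2-4, 1 fell. Prex1, a Rac activator, rose by 1.58 ± 0.05, the doublecortin kinase Dclk1 by 1.24 ± 0.07 and the tubulin regulator Stmn2 by 1.15 ± 0.07, whereas doublecortin itself, Dcx, was already at 542, 621 and 713 CPM in Cluster 6 and rose by 0.43 ± 0.04 to 647, 755 and 864 CPM. The reelin receptors parted, with 0.97 ± 0.18 for Vldlr and -0.45 ± 0.04 for Lrp8. Nde1, a partner of Lis1 that acts in dividing progenitors, fell by 1.32 ± 0.18 while its relative Ndel1 had 0.08 ± 0.07 and did not pass the test. The small GTPase Rnd2, a Neurog2 target in migration, rose by 0.73 ± 0.10, and Rnd3 had -0.06 ± 0.06, which did not pass.

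Genes of excitability and of synaptic release had more rises than falls. Of 37 ion channel genes tested, 22 rose (59.5%, beside 15.7% of all genes) and 4 fell (10.8%, beside 17.4%), with a median of 0.54. Beside Scn1a, the M current subunit Kcnq3 went from 232, 323 and 435 to 944, 1520.0 and 1578 CPM and rose by 2.35 ± 0.11, and the ryanodine receptor Ryr2 rose by 2.38 ± 0.17. The auxiliary calcium channel subunits Cacna2d2 and Cacna2d3 fell by 1.82 ± 0.15 and 1.58 ± 0.18, and Cacna2d1 had 0.14 ± 0.04, below the fold limit.
Of 30 presynaptic release genes tested, 16 rose (53.3%, beside 15.7% of all genes) and 4 fell (13.3%, beside 17.4%), with a median of 0.40. With scaling by total UMIs 11 rose and 7 fell, where 884 and 3099 of all 9425 genes did. The SNARE protein gene Snap25 went from 133, 163 and 190.0 to 295, 339 and 378 CPM and rose by 1.24 ± 0.04, and the priming factor Unc13a by 0.99 ± 0.08. The complexin Cplx2 fell by 1.10 ± 0.09 and the vesicle glycoprotein Sv2b by 1.45 ± 0.14, whereas Sv2a rose by 0.58 ± 0.15.
Glutamate and GABA receptor subunits and transporters were called in both directions, with 8 of 29 rising (27.6%, beside 15.7% of all genes) and 6 falling (20.7%, beside 17.4%) and a median of 0.07. With scaling by total UMIs 6 rose and 10 fell, where 884 and 3099 of all 9425 genes did. AMPA receptor subunits Gria2, Gria3 and Gria1 rose by 1.72 ± 0.04, 1.32 ± 0.16 and 0.79 ± 0.15, and Gria4 had 0.31 ± 0.07, below the fold limit. The vesicular glutamate transporter Slc17a7 rose by 1.399 ± 0.10, and Slc17a6, at 455, 506 and 588 CPM in Cluster 6 and 451, 543 and 608 CPM in Cluster 9, had 0.25 ± 0.04. Slc1a2, a glial glutamate uptake transporter, fell by 2.26 ± 0.15, and the kainate receptor subunit Grik4 by 1.83 ± 0.13.

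**Figure D3:**
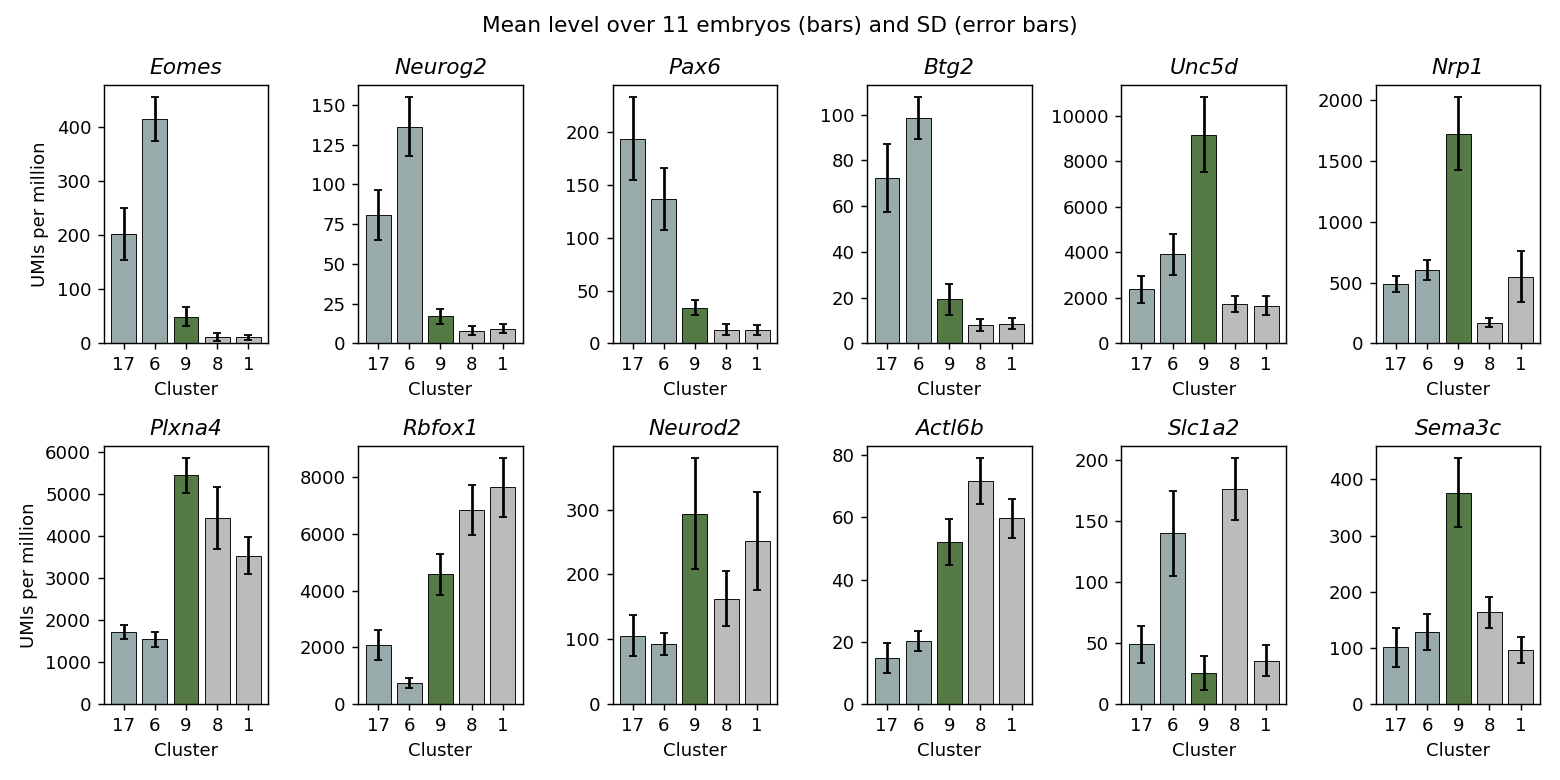
Mean level of 12 genes, in CPM, in mitotic IPC Cluster 17, non-mitotic IPC Cluster 6, Early PN Cluster 9 (green), PN 1 Cluster 8 and callosal PN Cluster 1, with SD over 11 embryos as error bars. Unc5d, Nrp1 and Sema3c are highest in Cluster 9, while Rbfox1 is higher still in Clusters 8 and 1.

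Neural RNA-binding and splicing genes were called in both directions. Of 27 tested, 12 rose (44.4%, beside 15.7% of all genes) and 6 fell (22.2%, beside 17.4%), with a median of 0.17. With scaling by total UMIs the median was -0.02, beside -0.20 over all genes. Beside Rbfox1 its paralog Rbfox2 rose by 0.33 ± 0.04, and Rbfox3, the NeuN antigen gene, had -0.11 ± 0.04, below the fold limit. In the Elavl family of neuronal RNA stabilisers, Elavl2 and Elavl4 fell by 0.86 ± 0.04 and 0.67 ± 0.04 while Elavl3 rose by 0.53 ± 0.05. Celf4 and Khdrbs2 rose by 1.27 ± 0.04 and 1.42 ± 0.06, and Nova1, Msi2 and Msi1 fell by 1.13 ± 0.10, 0.67 ± 0.03 and 0.35 ± 0.06. The splicing repressor Ptbp2 had 0.02 ± 0.04 and did not pass the test.

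In the BAF chromatin remodelling complexes, neural progenitor subunits are replaced by neuronal paralogs during differentiation. The neuronal subunit Actl6b (BAF53b) was at 13.8, 21.2 and 24.3 CPM in Cluster 6 and 35.7, 50.4 and 61.4 CPM in Cluster 9 and rose by 1.498 ± 0.10, and the values did not overlap. Its progenitor counterpart Actl6a (BAF53a) had -0.14 ± 0.08 (adjusted p = 0.164) and did not pass the test, although it was called as lower with scaling by total UMIs. Neuronal Dpf1 (BAF45b) rose by 1.16 ± 0.14, and Dpf3 (BAF45c), which is also a neuronal subunit, fell by 0.78 ± 0.18. Their paralog Dpf2 fell by 0.51 ± 0.08, but it is not the progenitor member of this exchange, which is not reported here by name.
In the third exchanged pair, progenitor Ss18 fell by 0.66 ± 0.11 and neuronal Ss18l1 (CREST) had 0.30 ± 0.10, just under the fold limit. Over the list, 8 of 26 subunits rose (30.8%, beside 15.7% of all genes) and 3 fell (11.5%, beside 17.4%), with a median of 0.13. With scaling by total UMIs 3 rose and 6 fell, where 884 and 3099 of all 9425 genes did. The 3 that rose under both scalings were Actl6b, Dpf1 and Smarcd3. Rest, the repressor of neuronal genes outside neurons, was at 6.50, 10.6 and 17.7 CPM in Cluster 6 and 1.88, 7.27 and 12.6 CPM in Cluster 9 (-0.38 ± 0.17). Of 10 genes for Rest and its corepressors 0 were called with TMM scaling, beside 33.1% of all genes. With scaling by total UMIs 2 were called as lower, as were 3099 of all 9425 genes.

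**Figure D4:**
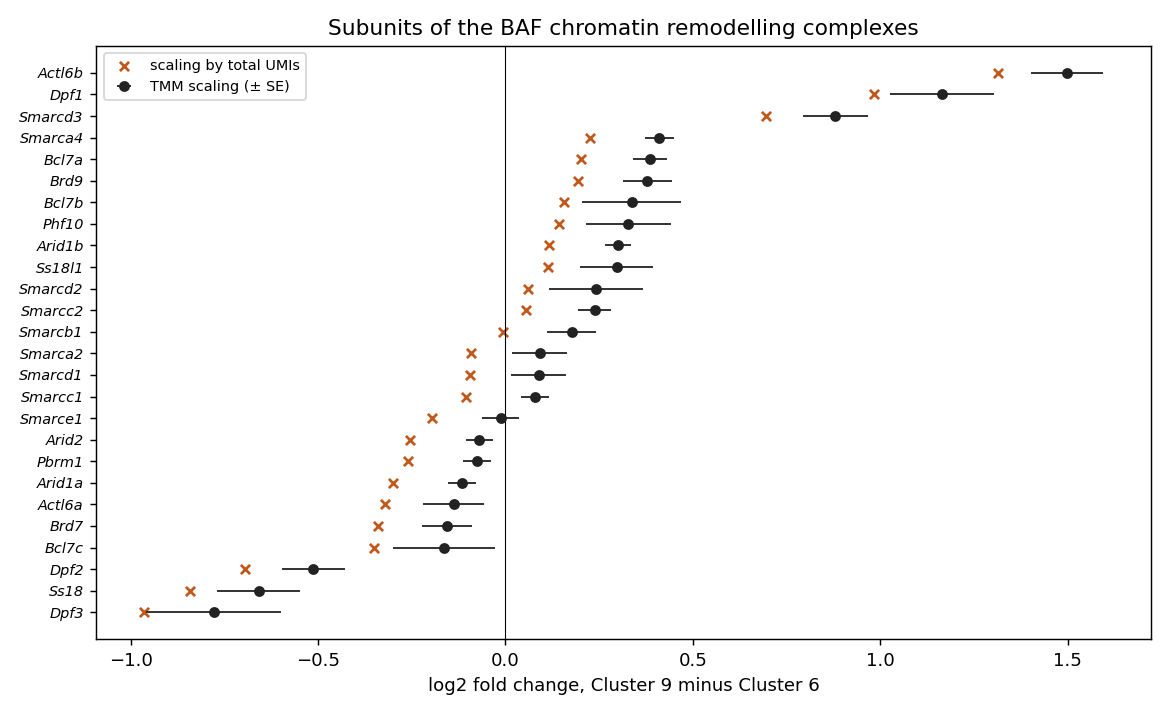
log2 fold change of the 26 BAF subunits, Cluster 9 minus Cluster 6, with TMM scaling (black, ± SE) and with scaling by total UMIs (orange crosses). Actl6b, Dpf1 and Smarcd3 lie highest under both scalings and Dpf2, Ss18 and Dpf3 lowest, while the other 20 subunits lie within 0.5 of 0.

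Levels in the neighbouring clusters set the step in place. The contrasts share libraries, so they are given side by side as a description. Eomes had a mean of 202 CPM in mitotic IPC Cluster 17, 414 in Cluster 6, 49.8 in Cluster 9, 12.01 in PN 1 Cluster 8 and 11.2 in callosal PN Cluster 1, while Unc5d had 2376, 3915, 9153, 1748 and 1662 CPM. Thus Eomes was highest in Cluster 6 and Unc5d in Cluster 9. Unc5d was lower in Cluster 1 than in Cluster 9 but was still found in 81.6% of its nuclei. Of the 294 genes that rose over 2-fold, 84 (28.6%) had their highest mean level of these 5 clusters in Cluster 9, 90 (30.6%) in Cluster 8 and 116 (39.5%) in Cluster 1, beside 8.87%, 14.6% and 9.74% of all genes tested. By the call rule, 117 of the 294 were lower in Cluster 6 than in Cluster 17 and 32 were higher. Over all 9425 genes tested, 1506 were lower and 1592 higher. The risers were chosen for low levels in the same Cluster 6 libraries, which favours this direction. Of the 486 that fell over 2-fold, 229 (47.1%) were highest in Cluster 6, 217 (44.7%) in Cluster 17 and 34 (6.996%) in Cluster 8, beside 34.5%, 32.3% and 14.6% of all genes tested. A gene chosen for its rise cannot be highest in Cluster 6, nor one chosen for its fall in Cluster 9, so these shares are in part fixed by the choice. Slc1a2 was one of those highest in Cluster 8, with a mean of 139.9 CPM in Cluster 6, 25.3 in Cluster 9 and 176 in Cluster 8.

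The markers that the authors list for the 2 clusters were chosen on these nuclei and are no independent evidence. Of their 100 listed for Cluster 9, 81 rose and 1 fell (median 0.94), and of 100 for Cluster 6, 57 fell and 11 rose (median -0.54). Over all genes tested, 15.7% rose and 17.4% fell. The lists share 30 genes.

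Genes of other cell types were examined in both clusters. The summed level of 18 interneuron genes, of which 0 were at 0 in all embryos, lay between 281 and 1905 CPM in Cluster 6 and between 302 and 1607 CPM in Cluster 9, against 32037 to 39042 CPM in Cluster 5. Of the 7 tested, 2 fell (28.6%, beside 17.4% of all genes) and 1 rose (14.3%, beside 15.7%). Gad2, the GABA synthesis gene, was found in 18.7% ± 12.1 of Cluster 6 nuclei, 15.01% ± 13.7 of Cluster 9 nuclei and 97.3% ± 1.09 of Cluster 5 nuclei. Of 4 genes tested from the list of Cajal-Retzius cells, 3 fell (Ebf3, Nhlh2 and Cacna2d2) and 1 rose, beside 17.4% and 15.7% of all genes. The riser was Reln, the secreted guidance protein of these cells, at 61.2, 155 and 321 CPM in Cluster 6 and 138, 200.015 and 405 CPM in Cluster 9 (0.68 ± 0.15), and it was at 215 to 409 CPM in Cluster 5. The summed level of the 9 genes was 189.97 to 619 CPM in Cluster 6, 156 to 467 CPM in Cluster 9 and 279.5 to 486 CPM in Cluster 5. By means, Reln alone made up 162 of 319 CPM in Cluster 6, 228 of 257 CPM in Cluster 9 and 291 of 362 CPM in Cluster 5. The defining factor Trp73 was at 0 to 6.97 CPM in Cluster 6 (median 1.43) and Lhx5 at 0 to 25.1 CPM (median 1.33), and the part of such cells in the falls of Ebf2 and Ebf3 was not tested. Of 8 deep-layer and subplate genes tested, 3 rose (37.5%, beside 15.7% of all genes) and 2 fell (25%, beside 17.4%), the latter being Nr4a2 and Zfpm2. Of 4 non-neuronal genes tested 0 were called, beside 33.1% of all genes. Of 5 immediate early and stress genes 1 fell (20%, beside 17.4%).

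The number of Early PN nuclei per non-mitotic IPC nucleus was similar in both treatments. It was 0.641 ± 0.0606 (SD, n = 5) in saline embryos, from 0.577 to 0.734, and 0.652 ± 0.0605 (SD, n = 6) in EtOH embryos, from 0.588 to 0.742. The groups overlapped almost fully, with a mean log2 difference of 0.02 (two-sided exact permutation test, p = 0.781, and p = 0.781 with labels exchanged within batches), and within batches it was -0.00487 in batch 1 (exact permutation p = 1) and 0.03 in batch 2 (exact permutation p = 0.8). Cluster 9 nuclei had 3.79% more UMIs than Cluster 6 nuclei by medians, in 10 of 11 embryos (exact permutation test of signs, p = 0.0166), but not by means, where 5 of 11 were higher (exact permutation test, p = 0.268). Genes detected per nucleus were 4.803% fewer in Cluster 9, in 11 of 11 embryos (p = 0.000977, the smallest the exact permutation test allows).

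Whether the step differed after EtOH was tested by the interaction of cluster and treatment. It was called for 8 of 9425 genes (0.0849%), all with a deeper fall in EtOH embryos, and 615 had an unadjusted p under 0.05. On simulated data that also held planted changes, the same fit called 0.1% of unchanged genes. Planted changes ease the adjusted p limit, so the 2 shares are not comparable. Gli3, a transcription factor of the hedgehog pathway and of radial glia, was at 346, 334, 360, 339 and 293 CPM in Cluster 6 of saline embryos S1-1, S1-2, S2-1, S2-2 and S2-4 and at 279 to 384 CPM in EtOH embryos (median 355). In Cluster 9 the same saline embryos had 124, 136, 156, 173 and 91.8 CPM, and EtOH embryos 63.4 to 101 CPM (median 82.6). Thus the treatments overlapped in Cluster 6 and lay apart in Cluster 9, where only S2-4 reached into the EtOH range. The difference of the steps was -0.69 ± 0.11 (adjusted p = 0.00471).
Adgrv1, a very large adhesion receptor, had 81.3, 76.4, 116, 94.4 and 42.7 CPM in Cluster 9 of these saline embryos and 18.6 to 41.2 CPM (median 26.025) in EtOH embryos, with a difference of the steps of -1.53 ± 0.22 (adjusted p = 0.0089). Slit1, which encodes a guidance ligand, had 17.9, 23.9, 34.2, 28.7 and 19.3 CPM in Cluster 9 of saline embryos and 5.63 to 15.5 CPM (median 9.30) in EtOH embryos, with a difference of -1.31 ± 0.22 (adjusted p = 0.00471). Neither gene's groups overlapped in Cluster 9, but both genes had been chosen by the test on these same embryos. The other 5 were Zeb1, a repressor that maintains progenitors (-0.51, adjusted p = 0.0164), the kinase Prkd1 (-0.66, adjusted p = 0.0303), the chromatin helicase Hells (-1.21, adjusted p = 0.0394), Tox3 (-1.18, adjusted p = 0.0416) and Tmem132b (-1.10, adjusted p = 0.0462).
Levels of some of these genes were also lower in EtOH embryos in other clusters. Gli3 was at 86.5 ± 24.6 CPM in saline (SD, n = 5) and 41.4 ± 10.3 CPM in EtOH embryos (SD, n = 6) in Cluster 8, at 75.9 ± 24.5 and 30.1 ± 5.87 CPM in Cluster 1, and at 146 ± 41.4 and 105 ± 52.3 CPM in Cluster 5. Adgrv1 was at 81.0 and 44.6 CPM in Cluster 8 and at 60.0 and 17.5 CPM in Cluster 1, and Zeb1 at 132 and 68.6 CPM and at 91.3 and 53.4 CPM. Others differed less, such as Slit1 in Cluster 8 (101 and 90.6 CPM) and Prkd1 in Cluster 1 (92.8 and 89.6 CPM). Mean Tmem132b levels were instead higher in EtOH embryos in Clusters 12 (489 and 681 CPM), 2, 17 and 5 (174 and 223 CPM). They were lower in EtOH embryos in Clusters 8 (45.0 and 33.2 CPM) and 1 (16.8 and 10.7 CPM). In Cluster 6 Tmem132b was at 91.8 and 139.8 CPM, and in Cluster 9 at 17.9 and 12.4 CPM. Its deeper fall thus also went with a higher mean in Cluster 6 of EtOH embryos. In progenitor Clusters 12, 2 and 17 the Gli3 groups overlapped, with means of 1762 and 1875, 1415 and 1431, and 664 and 685 CPM. These levels were not tested.

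**Figure D5:**
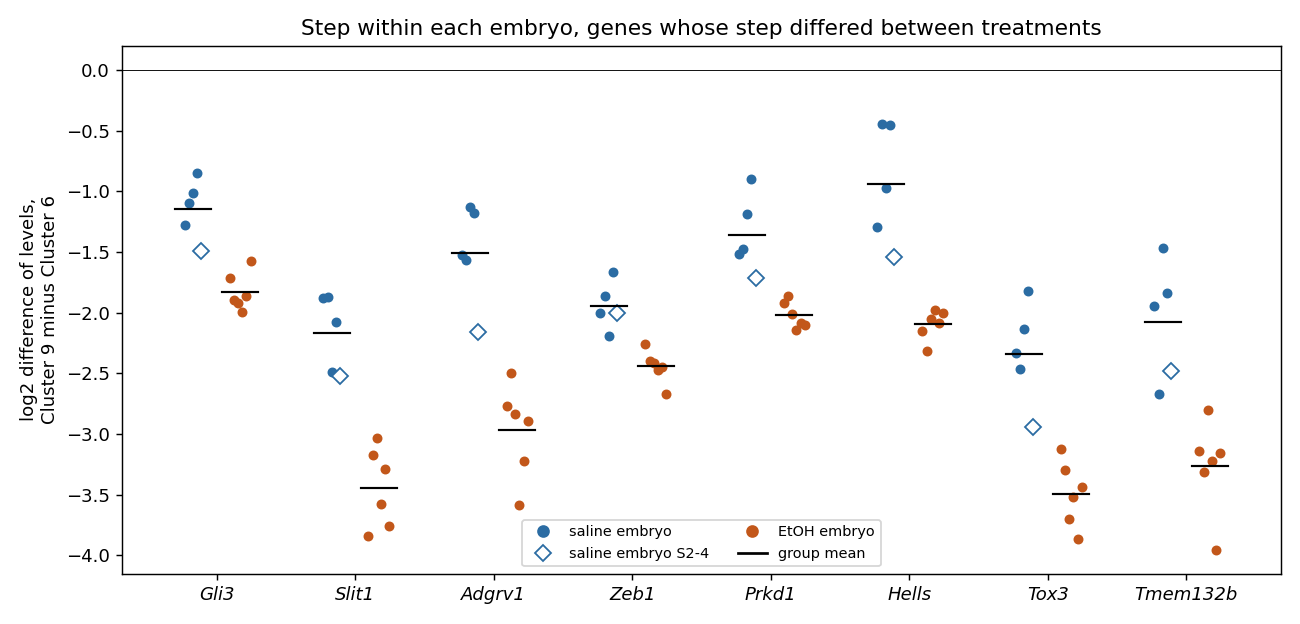
Step within each embryo, as the log2 difference of levels (Cluster 9 minus Cluster 6), for the 8 genes whose step differed between treatments, with 1 point per embryo and a black bar for the group mean. Steps of EtOH embryos (orange) lie below those of saline embryos (blue), with no overlap between the groups, and embryo S2-4 (open diamond) is the saline embryo closest to them for 6 of the 8 genes. The 8 genes were chosen by the test of this difference, so the separation largely follows from the choice.

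The calls depended on the setting more than the sizes did. All 8 genes kept their sign in 24 of 24 settings, but the settings reuse the embryos on which the genes were chosen. Gli3 had -0.68 with the dam block in limma, -0.61 in batch 1 and -0.70 in batch 2. With the dam as a random block in limma 0 genes were called (723 at an unadjusted p under 0.05), batch 1 alone gave 2 genes and batch 2 alone 1, of which 0 were among the 8. With nuclei thinned to 2000 UMIs 12 genes were called, 6 in each direction, of which 2 (Adgrv1 and Tox3) were among the 8, while Gli3 had an adjusted p of 0.0508, Slit1 of 0.328 and Prkd1 of 0.768, all from edgeR, with log2 differences of -0.65, -1.09 and -0.36. Leaving out single embryos mattered as well, with 47 genes without S2-4, 2 without E2-1, 4 without S1-2, S2-2 or E2-2 and 5 without E1-2. Summed interneuron genes also differed between the groups, at 459 to 1905 CPM in Cluster 6 and 482 to 1607 CPM in Cluster 9 of saline embryos, of which S2-4 was the lowest, against 281 to 667 and 302 to 486 CPM in EtOH embryos. Summed Cajal-Retzius genes in Cluster 9 did not overlap, at 258 to 467 CPM in saline and 156 to 230.3 CPM in EtOH embryos, and in Cluster 6 they were at 237 to 619 and 189.97 to 300.7 CPM. Most of the Cluster 9 sum was Reln (mean 228 of 257 CPM), which is not particular to these cells, with a mean of 291 CPM in interneuron Cluster 5. Summed radial glia genes in Cluster 9 were at 1279 to 1713 CPM in saline and 1159 to 1381 CPM in EtOH embryos, and dividing cell genes at 134 to 274 and 78.5 to 143 CPM. The depth per nucleus given above was lower in EtOH embryos and S2-4 than in the other 4 saline embryos. The part of these measures in the result was not tested.
For Eomes the difference of the steps was -0.49 (adjusted p = 0.722) and for Unc5d -0.08 (adjusted p = 0.949), so neither defining marker was called.

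Within a single cluster, EtOH against saline with batch as a term gave 1 called gene of 10785 in Cluster 6 (0.00927%) and 45 of 9138 in Cluster 9 (0.492%), with 2191 and 1731 genes at an unadjusted p under 0.05. In Cluster 6 the gene was the predicted gene Gm38948, at 13.6 ± 3.01 CPM (SD, n = 5) in saline and 31.4 ± 5.62 CPM (SD, n = 6) in EtOH embryos. In Cluster 9, 12 genes (0.131%) were higher and 33 (0.361%) lower after EtOH. Podxl2, a sialomucin, was at 234 ± 46.4 CPM in saline and 352 ± 14.4 CPM in EtOH embryos (log2 0.56, adjusted p = 0.0172).
Zeb1 was at 171 ± 19.8 CPM in saline and 107 ± 12.2 CPM in EtOH embryos (log2 -0.69, adjusted p = 0.00566), and Pdgfc, a growth factor, at 82.7 ± 14.7 and 44.3 ± 14.7 CPM (log2 -0.96, adjusted p = 0.00724). The counts turned on single libraries. Without S2-4, 1492 genes were called in Cluster 6 and 1234 in Cluster 9, and without S2-1 and S2-2 together 0 were called in either. Leaving out any other single embryo gave 0 or 1 genes in Cluster 6 and 4 to 17 in Cluster 9.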

How the data were processed

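Single-nucleus RNA-seq was carried out on cortices of 11 embryos, 5 saline and 6 EtOH, with 1 library of both cortices per embryo. One further saline embryo of the labels was not analysed here. The authors isolated nuclei from frozen tissue, made 10X Genomics 3′ libraries, ran Cell Ranger on mm10, filtered nuclei, removed sex-specific and mitochondrial genes, integrated batch and dam with Harmony and clustered. They deposited raw UMI counts, unnormalised, in 275 tables, 1 per embryo and cluster, of 23513 genes. Whether reads were counted by strand is not given in the sources used here, and 25 of 132 named genes overlap a tested gene on the opposite strand (among them Pax6, Emx2, Plxna4, Myt1l, Actl6a, Smarcd3, Wnt7b and Gm38948), where reads cannot be told apart if strand was not used. Doublets were not called here.

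Counts were summed over nuclei per embryo and cluster and tested with edgeR 4.0.16 (R 4.3.3, limma 3.58.1), by quasi-likelihood with TMM scaling, filterByExpr, the embryo as a block and Benjamini-Hochberg adjustment over all genes tested. Called genes had an adjusted p under 0.05 and a fold under 0.8 or over its inverse. The step by treatment was an interaction in the same paired fit, and within a cluster EtOH was compared with saline with batch as a term. Ratios and depths were compared by two-sided exact permutation tests in Python 3.11.15 with NumPy 2.4.6, pandas 2.3.3 and SciPy 1.17.1. Genes named were Unc5d and Eomes, the 10 largest called changes per direction with at least 50 CPM in the higher cluster and 1 direction in 11 embryos, up to 3 per direction and list with further members where a list is described, and for treatment up to 5 called genes per direction, or the 3 with the smallest p. The members and lists were chosen with earlier results of these data known. Neurod1, Cdt1, Ntn3, Tubb3 and Ccn2 were not analysed here. Some list members are not reported here by name.

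Embryos are paired because both sums come from the same embryo. Deviations of the 2 sums from their group means correlated at 0.157 to 0.68 within an embryo, and 8 of 11 correlated best with their own embryo. No 2 libraries were duplicates, with a chi-square per degree of freedom of 1.76 to 13.6 over 55 pairs of Cluster 6 sums. The lowest value was for S2-4 with EtOH embryo E2-3 and the highest for S2-4 with S2-1, of the same dam by label. S2-4 had 1.76 to 3.16 with EtOH embryos and 8.21 to 13.6 with the other saline embryos. Alternatives were DESeq2 1.42.0 and its size factors, total UMIs, other filters, thinning to 2000 UMIs, sums per dam, a dam block in limma, no replicate block and leaving out embryos. Leaving out S2-1, S2-2 and S2-4 and analysing single batches for treatment were chosen after seeing the data. On simulated data the fit of the step, run on 9314 genes, recovered 100% of 2-fold and 90% of 1.5-fold rises, with 0.02% of unchanged genes called. The fit of the difference of the step, run on 9301 genes, recovered 84% of 2-fold and 40% of 1.5-fold rises. It called 0.1% of unchanged genes, in data that also held planted changes. Calls of planted genes ease the adjusted p limit, so this share cannot be set against the 0.0849% of genes called in the data. The simulated data held no effect of the dam on the step, so these shares are for an easier setting. Sequences and their coordinates are from RefSeq (GRCm38.p6), and gene positions from GENCODE M21.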

Additional observations from a re-analysis of the deposited data

Results flagged for a closer look

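Within-embryo steps of 3 genes had 1 embryo far from the others of its group. For Cemip, S2-1 had a log2 step of 4.09 against 2.48 to 2.90 in the other saline embryos. For Chrna7, S2-4 had 2.88 against 2.16 to 2.37 in the other saline embryos. For Nav2, E2-3 had 3.70 against 2.58 to 2.96 in the other EtOH embryos. These were 3 of 72 groups examined, and chance alone gives about 1 in 20.

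The step differed between treatments for 8 genes by the interaction test, with log2 differences (EtOH minus saline) of -0.69 for Gli3, -1.31 for Slit1, -1.53 for Adgrv1, -0.51 for Zeb1, -0.66 for Prkd1, -1.21 for Hells, -1.18 for Tox3 and -1.10 for Tmem132b.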

How the results depend on the processing

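The direction of the step in named genes was stable under most settings, while the set of called genes changed more. Of the 3117 called genes, 1843 were called again with thinned nuclei, 2293 in batch 1 alone and 2363 in EtOH embryos alone. Without the replicate block, that is with the sums not paired by embryo, 1347 genes rose and 1489 fell, and leaving out 1 embryo gave 1435 to 1513 and 1592 to 1658. Total UMIs alone gave 884 and 3099. With thinned nuclei 1094 rose and 998 fell of 6199 tested, so that rises outnumbered falls. Over 120 named genes and all settings, 3017 of 3073 values kept their direction and side of the threshold, 53 lost the call, 3 gained it and no called value changed sign. Many of these genes were named for large called changes. Thinned, Eomes was found in 53.4% and 8.26% and Unc5d in 70.9% and 99.6% of Cluster 6 and Cluster 9 nuclei.

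The difference in nuclei of Cluster 9 per nucleus of Cluster 6, EtOH minus saline (log2), had no stable sign, with -0.00336 for group medians, -0.00487 in batch 1, -0.00133 without S1-2, -0.0134 without S2-1 and -0.0155 without E2-1 (range without 1 embryo -0.0155 to 0.0731). In percentage points of all nuclei, Cluster 9 minus Cluster 6, the treatments differed by -0.216, which is another scale and no sign change of the ratio. UMIs per nucleus gave -0.0276 by means. By medians they gave 0.0465 to 0.0669 without 1 embryo, and genes per nucleus -0.0754 to -0.0646.

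Genes whose step differed by treatment numbered 81 with no filter, 30 per dam, 12 with thinned nuclei (2 of them among the 8), 4 without S2-1 and S2-2, 2 in batch 1, 1 in batch 2 and 0 with the dam block in limma (723 at an unadjusted p under 0.05), and 2 to 47 without 1 embryo (47 without S2-4, 5 without E1-2, 4 without S1-2, S2-2 or E2-2, 2 without E2-1). On simulated data the dam block found 14% of 2-fold rises and 6% of 2-fold falls (9425 genes).

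Within Cluster 6, edgeR called 0 genes with DESeq2 size factors, total UMIs, a 10 CPM filter, without S2-1 and S2-2, or in batch 2. DESeq2 called 365, no filter 1151, thinned nuclei 26, sums per dam 227, without 3 saline embryos 846, batch 1 896, and without 1 embryo 0 to 1492. Within Cluster 9 the counts were 24 with total UMIs, 280 with DESeq2, 721 with no filter, 27 thinned, 249 per dam, 0 without S2-1 and S2-2, 560 without 3 saline embryos, 471 in batch 1, 0 in batch 2, 116 with no batch term and 4 to 1234 without 1 embryo (1234 without S2-4, 17 without S2-1, 14 without E1-2, 11 without E2-2, 9 without S1-2, 7 without E2-3, 6 without S2-2 or E2-1, 5 without E2-4, 4 without S1-1 or E1-1). The cause was not tested. Cluster 9 sums went down to 532801 UMIs, and the part of depth in these counts was not tested.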

Other observations

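Genes that changed most in the step were long. The median gene length (GENCODE M21) was 115 kb for the 294 genes that rose over 2-fold and 97.6 kb for the 486 that fell over 2-fold, against 34.5 kb over all genes tested. Antisense genes made up 11.3% of those that rose over 2-fold (33 genes), 2.90% of those that fell over 2-fold (14 genes) and 3.63% of all genes tested (339 genes). Lengths were matched for 99.2% of all genes tested.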
